A study of Homo sapiens with 6 samples.

Results

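Serpins are a superfamily of proteins, most of which trap and inactivate a protease, and 10 of their genes are described here in mesothelioma cells grown flat or as spheroids. These are SERPINB1, SERPINB2, SERPINB3, SERPINB4, SERPINB5, SERPINB7, SERPINB8 and SERPINB9 of clade B, and SERPINA1 and SERPINA3 of clade A. The list was selected on family and on the signals of these same arrays, with the difference between spheroids and monolayers already known. The differences of these genes are therefore given as a description, without a p value. All probe sets that the array annotation assigns to a listed gene were taken, which gave 21 of the 54675 on the array. They read 9 of the 10 genes, since no probe set is paired with SERPINB2 in the annotation used, and its level was not analysed here. SERPINB1 and SERPINA1 have 4 probe sets each, SERPINB9 has 3, SERPINB5 and SERPINB8 have 2 each, and SERPINB7 and SERPINA3 have 1 each. SERPINB3 has 2 of its own, SERPINB4 has 1 of its own, and 1 is annotated to both.

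The cells were NCI-H226, an established human mesothelioma line, in RPMI medium with fetal bovine serum, and the labels name no drug for either group. Monolayers were adherent cultures. Each spheroid started from 10000 cells spun together in a well coated with poly-HEMA, a polymer to which cells do not attach, and was incubated for 24 hours. The labels call the 3 monolayer and 3 spheroid samples biological replicates of this 1 line, and each was hybridized to 1 Affymetrix Human Genome U133 Plus 2.0 array. Fewer cells with a transcript and less of it in each cell cannot be told apart.

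A serpin presents an exposed loop that resembles the substrate of its target. When the protease cuts the loop, the serpin folds around it and locks the enzyme in a covalent complex. Clade A serpins such as those of blood plasma are secreted, whereas most of clade B lack a classical signal peptide and act mainly inside cells, where they guard against proteases that leak from granules or lysosomes. SERPINB3 and SERPINB4 are the squamous cell carcinoma antigens, known from stratified epithelium and used as a serum marker of squamous tumors. In the RefSeq gene order (GRCh38.p14), SERPINB5, SERPINB4, SERPINB3, SERPINB7, SERPINB2 and SERPINB8 lie in 1 cluster on chromosome 18, SERPINB1 and SERPINB9 on chromosome 6, and SERPINA1 and SERPINA3 on chromosome 14.

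SERPINB3 and SERPINB4 are neighbors in that cluster and are near copies of each other, which may bear on every signal read for them. The 250 bases before the start of each gene are shown because they let the likeness of this pair be seen, with the bases that differ in capitals (RefSeq, GRCh38.p14, both on the minus strand, 5′ to 3′, chr18:63661894-63662143 for SERPINB3 and chr18:63644257-63644506 for SERPINB4).
SERPINB3: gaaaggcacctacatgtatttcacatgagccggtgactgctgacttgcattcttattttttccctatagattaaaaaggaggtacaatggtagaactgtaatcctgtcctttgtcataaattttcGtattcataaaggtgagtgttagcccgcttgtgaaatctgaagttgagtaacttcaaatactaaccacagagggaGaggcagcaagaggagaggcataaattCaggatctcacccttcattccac
SERPINB4: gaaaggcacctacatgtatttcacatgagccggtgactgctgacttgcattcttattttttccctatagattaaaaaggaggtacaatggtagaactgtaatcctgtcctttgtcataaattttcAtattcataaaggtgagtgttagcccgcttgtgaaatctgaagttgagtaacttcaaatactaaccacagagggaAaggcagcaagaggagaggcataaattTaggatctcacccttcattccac
These windows were identical at 247 of 250 bases, and at 296 of 300 when the first 50 bases of the gene were included. This likeness does not measure how far the probes bind RNA of both genes, since transcripts and probes were not compared. No other pair of windows of the listed genes, each aligned end to end, exceeded 51.6% identity. The 300-base windows, of which the 10 genes have 13, were searched on both strands for TATAAA, the core of the TATA box, TGANTCA, the site of AP-1 factors, and TTCNNNGAA, the site of STAT factors. TGANTCA occurred in windows of SERPINB2, SERPINB5, SERPINB7 and SERPINB8, in 5 of the 13, and in 7.71% of the 35116 windows of all genes. TATAAA occurred in 4 of the 13 (SERPINB2, SERPINB7, SERPINB8 and SERPINB9) and in 11.5% of all windows, and TTCNNNGAA in 3 (SERPINB1, SERPINB7 and SERPINB8) and in 7.66%. In the window of SERPINB8 a pair of TATAAA matches on opposite strands overlapped each other. Neither window of SERPINB3 or SERPINB4 held any of these letter patterns. A match describes the letters only and is no site.

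Values are MAS5 signals, a linear intensity per probe set that the authors scaled to a common trimmed mean. Array medians were 14.6 to 14.7 in monolayers and 15.2 to 18.05 in spheroids, so log2 signals were centred on each array's median before groups were compared, and centring lowered every log2 fold change by 0.15. Among monolayers, arrays 2 and 3 correlated at 0.950 over all probe sets and monolayer 1 with them at 0.939 and 0.937. All 11 mesothelial markers looked at, among them MSLN, WT1 and CALB2, lay above the array median on every array, with signals of 54.3 to 6443, and limma called 1 of them, PDPN, higher (adjusted p = 0.0396). At an unadjusted p under 0.05 there were 3, PDPN and 2 that did not pass. THBD read 349, 99.9 and 127 in monolayers and 96.1, 86.5 and 54.3 in spheroids, and CALB2 read 1582, 163 and 83.6 in monolayers and 2238, 1317 and 1765 in spheroids, with monolayer 1 the highest monolayer for both. Of 6 leukocyte markers only ITGAM lay above the array median on every array, and the sum of the 6 was 114 to 131 in monolayers and 152 to 192 in spheroids. None was at 0. Limma called 0 of the 6, and the 2 at an unadjusted p under 0.05 were CD14, with 13.0 to 27.9 in monolayers and 39.7 to 50.7 in spheroids, and PTPRC, with 1.56 to 6.70 and 12.1 to 13.9. ELANE was at 2.09 or lower on every array. The share over all genes at an unadjusted p under 0.05 was not counted, and the part of these markers in the serpin signals was not tested.

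Most of the serpin probe sets lay higher in spheroids than in monolayers. The log2 fold change of centred signals, spheroids minus monolayers, is called the log2 difference below and is given with its standard error from limma. It was above 0 at 16 of 21 and below 0 at 5, with a median of 0.80 against -0.08 over all probe sets. All 3 spheroids lay above all 3 monolayers at 9 of 21, where 10.2% of all probe sets did so, and below them at 0, where 17.6% did. Limma with Benjamini-Hochberg adjustment over all 54613 tested probe sets placed 6 of 21 higher at a threshold of 0.05 and 0 lower, where the shares over all probe sets were 2.78% higher and 6.65% lower. At an unadjusted p under 0.05 there were 8 of the 21, a cutoff at which the share over all probe sets was not counted. The list was chosen with this comparison known, so nothing is read from these counts. The 6 were all 4 probe sets of SERPINB3 and SERPINB4 and 2 of the 4 of SERPINB1. The balance of directions over all probe sets depended on the scaling: limma called 1519 higher and 3630 lower after centring, but 2561 higher and 2863 lower on the values as deposited and 2455 higher and 2967 lower after quantile normalization. The number of serpin probe sets past the threshold was 6 under each of these.

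**Figure D1:**
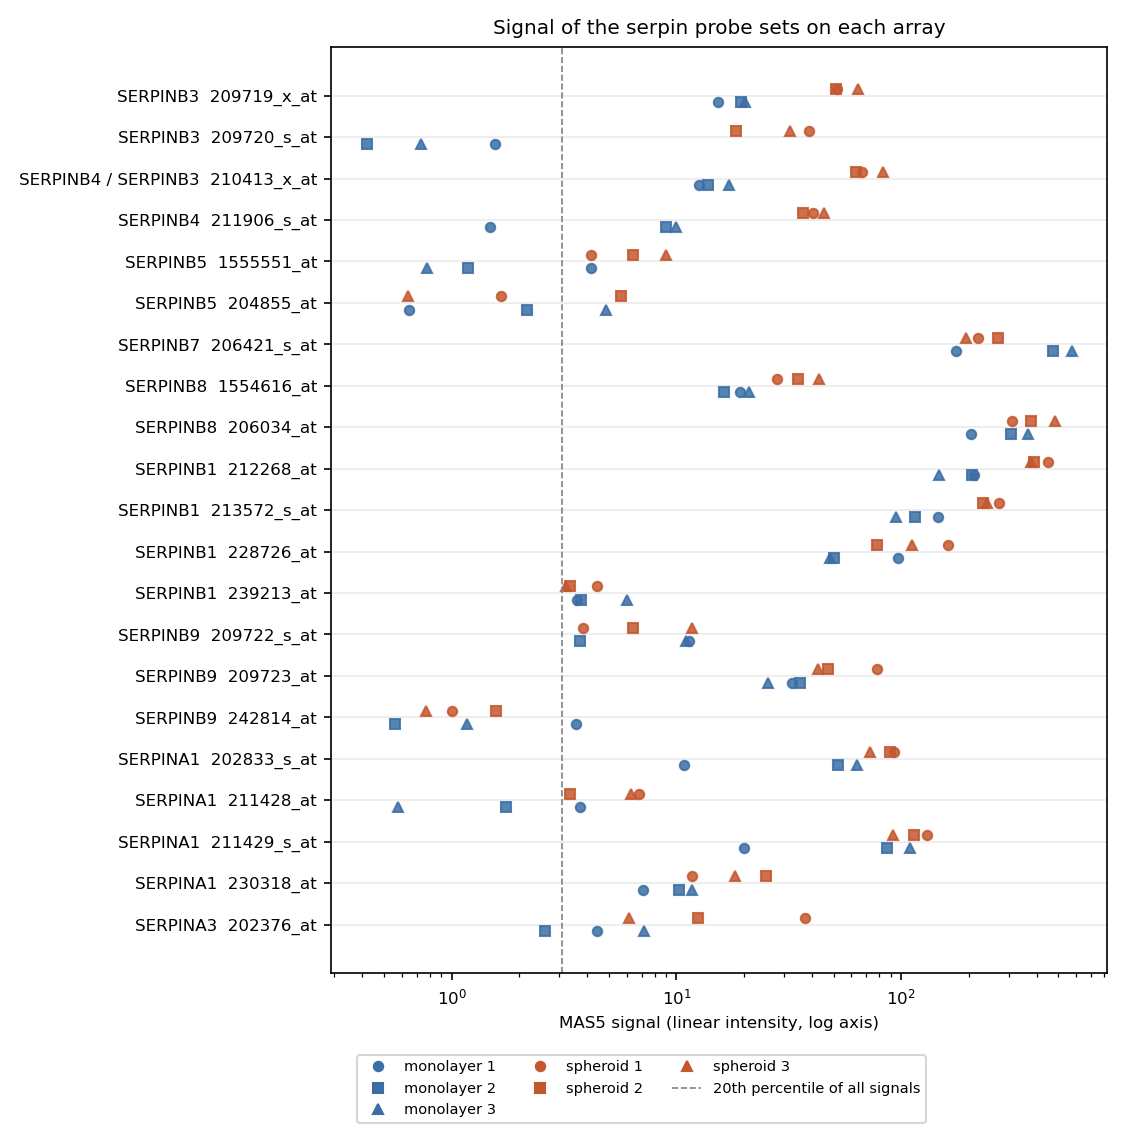
MAS5 signal of the 21 serpin probe sets on each of the 6 arrays (linear intensity on a log axis), with monolayers in blue, spheroids in orange, a marker shape for each replicate number, and the 20th percentile of all signals, 3.11, as a dashed line. At the 4 probe sets of SERPINB3 and SERPINB4 every spheroid lies above every monolayer, and monolayer 1 lies far to the left of the other monolayers at SERPINB4, SERPINB7 and the 2 brighter SERPINA1 probe sets that end in s_at.

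SERPINB3, which inhibits the lysosomal cysteine proteases cathepsin L, K and S, and SERPINB4, which inhibits the serine proteases cathepsin G and chymase, were higher in spheroids at each of their probe sets. The SERPINB3 probe set 209720_s_at read 1.56, 0.419 and 0.734 in monolayers 1, 2 and 3 and 38.8, 18.4 and 32.1 in spheroids 1, 2 and 3. The groups were far apart, but all 3 monolayers lay below 3.11, the 20th percentile of all signals. The mean rose from 0.904 ± 0.589 to 29.8 ± 10.4 (SD, n = 3 each), a log2 difference of 5.04 ± 0.68. Because the monolayer values lie at the bottom of the scale, this size is not exact, and with low values raised to the 20th percentile it was 3.12.
The second SERPINB3 probe set, 209719_x_at, was read above that percentile on every array. Its signals were 15.2, 19.3 and 20.1 in monolayers and 51.8, 51.3 and 64.4 in spheroids. Both groups were tight, and the log2 difference was 1.47 ± 0.27, a 2.77-fold difference. The suffix x_at marks probe sets with probes that can also bind other transcripts, and s_at those whose probes match several transcripts.
The probe set annotated to both genes, 210413_x_at, read 12.6, 13.7 and 17.2 in monolayers and 67.2, 62.9 and 82.6 in spheroids, without overlap. Its log2 difference was 2.15 ± 0.27, or 4.42-fold. On the single probe set of SERPINB4 alone, 211906_s_at, monolayer 1 stood at 1.49 while monolayers 2 and 3 stood at 8.99 and 9.96, and the spheroids at 40.4, 36.6 and 45.2. The mean rose from 6.81 ± 4.64 to 40.7 ± 4.33 (SD, n = 3 each) and the log2 difference was 2.84 ± 0.69. Without monolayer 1 it was 1.96.
The genes are near copies, so a signal at any of these probe sets may hold RNA of both, but probes and transcripts were not compared. The shares of SERPINB3 and SERPINB4 were not separated. The profiles of the x_at probe sets over the 6 arrays were alike, with a root mean square difference of 0.35 on the log2 scale after each profile was set to its own mean. Between the 2 probe sets of SERPINB3 it was 1.92. The SERPINB4 call ended with low values raised to the 20th percentile and without any 1 of the 3 spheroids, and the call of 209719_x_at ended without spheroid 3. The calls of 209720_s_at and 210413_x_at held without each single array.

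**Figure D2:**
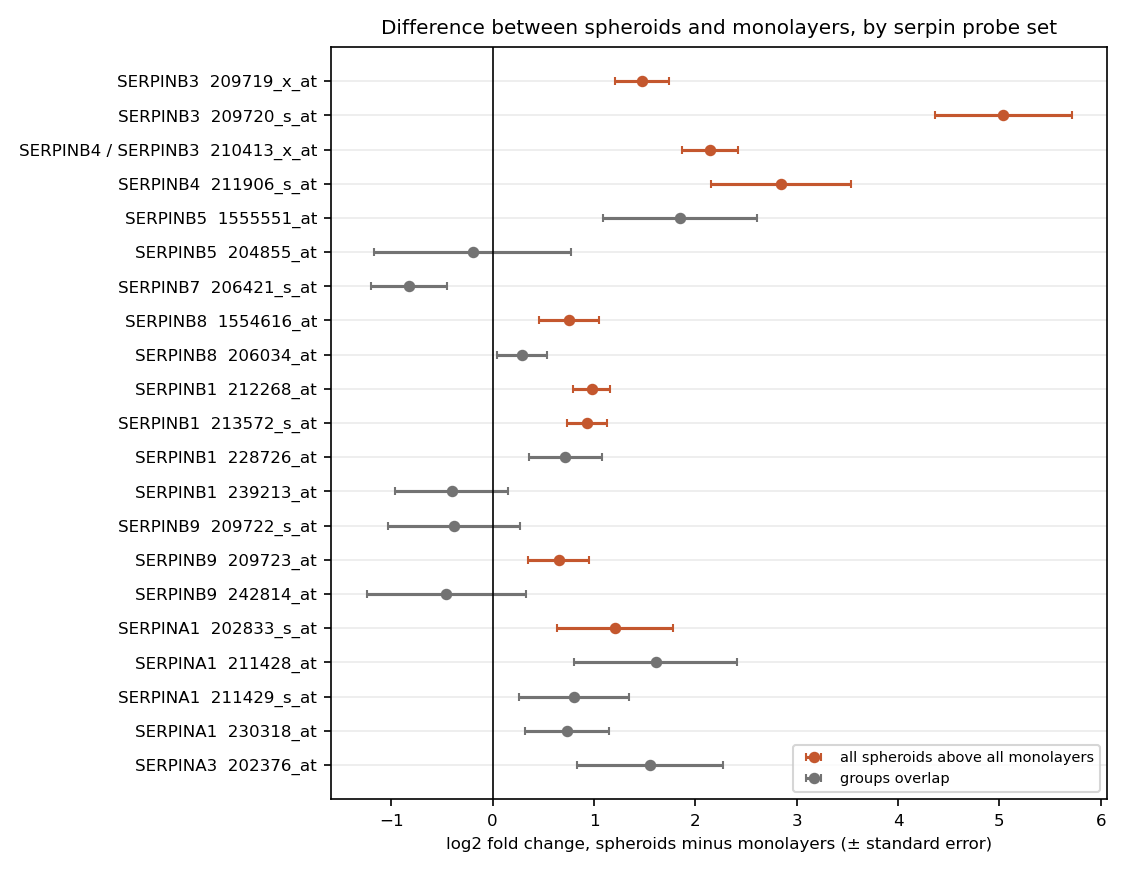
Log2 difference, spheroids minus monolayers, of each serpin probe set with its standard error from limma (n = 3 arrays per group). Orange marks the 9 probe sets at which all spheroids lie above all monolayers on centred values and grey the 12 that overlap, and the values run from -0.82 at SERPINB7 to 5.04 at SERPINB3.

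SERPINB1, an inhibitor of the neutrophil proteases elastase, cathepsin G and proteinase 3, was about equally higher at its brightest probe sets. At 212268_at the signals were 211, 206 and 147 in monolayers and 449, 390 and 379 in spheroids. At 213572_s_at they were 146, 116 and 95.0 in monolayers and 271, 231 and 241 in spheroids. No spheroid overlapped a monolayer at either, and the log2 differences were 0.98 ± 0.18 and 0.93 ± 0.20, or 1.97-fold and 1.91-fold. Their profiles over the arrays differed by a root mean square of only 0.10, the smallest value among all pairs of the 21 probe sets.
The third, 228726_at, had a log2 difference of 0.72 ± 0.36, with 96.9, 50.5 and 48.1 in monolayers and 161, 78.1 and 112 in spheroids. Here monolayer 1 lay above spheroid 2, so the groups overlapped. The fourth, 239213_at, was dim at 3.22 to 6.04 on all arrays and had a log2 difference of -0.41 ± 0.56. Both SERPINB1 calls ended without spheroid 3 and with low values raised to the 20th percentile, and that of 213572_s_at also without spheroid 1, monolayer 2 or monolayer 3, while the log2 differences kept between 0.78 and 1.09 without any 1 array.

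SERPINB9 is the intracellular inhibitor of granzyme B. Its brightest probe set, 209723_at, read 32.7, 35.6 and 25.7 in monolayers and 77.7, 47.1 and 42.8 in spheroids. The groups did not overlap, but spheroid 1 carried much of the difference, and the log2 difference of 0.65 ± 0.30 did not pass limma. Without spheroid 1 it was 0.36. The profile of this probe set over the arrays lay near those of SERPINB1 at 212268_at and 213572_s_at, with root mean square differences of 0.26 and 0.28. The other 2 probe sets of SERPINB9 were dim, at 3.73 to 11.7 and 0.563 to 3.57, with log2 differences of -0.38 ± 0.65 and -0.46 ± 0.78.

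SERPINB8, which can inhibit the proprotein convertase furin, was read by a bright and a dim probe set. The bright one, 206034_at, gave 205, 309 and 365 in monolayers and 310.5, 376 and 485 in spheroids. These ranges overlapped, and the log2 difference was 0.29 ± 0.25, or 0.05 without monolayer 1. The dim one, 1554616_at, gave 19.1, 16.3 and 21.1 in monolayers and 28.0, 34.8 and 43.3 in spheroids, with no overlap and a log2 difference of 0.75 ± 0.30. Neither passed limma.

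SERPINB7, also called megsin and known from the epidermis and the renal mesangium, was well read, and its mean was lower in spheroids. Its probe set 206421_s_at read 174, 472 and 573 in monolayers and 220, 269 and 195 in spheroids. Monolayers 2 and 3 lay above every spheroid, whereas monolayer 1 lay below them all. The log2 difference was -0.82 ± 0.37 and did not pass limma. Without monolayer 1 it was -1.35 and passed, and without monolayer 3 it was -0.49 and did not, so its size depends on which monolayers are kept.
SERPINB5, or maspin, a serpin that does not inhibit proteases and is studied as a tumor suppressor of epithelia, was near the bottom of the scale. Its probe sets ranged from 0.777 to 8.96 and from 0.642 to 5.65 over all arrays. The log2 differences were 1.85 ± 0.76 and -0.20 ± 0.98, and neither passed. With low values raised to the 20th percentile the first was 0.76, and the second turned sign without some single arrays, ranging from -0.97 to 0.51. At this signal no difference of SERPINB5 passed the adjusted threshold, and its probe sets pointed in opposite directions.

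SERPINA1, or alpha-1-antitrypsin, the main inhibitor of neutrophil elastase in plasma, had a higher mean in spheroids at each of 4 probe sets, none of which passed limma. At 202833_s_at the signals were 10.8, 52.5 and 63.6 in monolayers and 93.0, 88.7 and 72.6 in spheroids. At 211429_s_at they were 20.004, 86.3 and 109.7 in monolayers and 129.6, 114 and 92.0 in spheroids. Monolayer 1 was again the low array at both, and monolayers 2 and 3 came near or into the range of the spheroids. The log2 differences were 1.20 ± 0.57 and 0.80 ± 0.54, but 0.40 and 0.04 without monolayer 1. The profiles of these 2 probe sets were close, with a root mean square difference of 0.21.
The dimmer SERPINA1 probe sets, 230318_at at 7.12 to 24.9 and 211428_at at 0.575 to 6.80, had log2 differences of 0.73 ± 0.42 and 1.61 ± 0.81. The second was 0.61 with low values raised to the 20th percentile and 0.89 without monolayer 3. SERPINA3, or alpha-1-antichymotrypsin, an acute phase protein that inhibits cathepsin G, was dim. It read 4.42, 2.61 and 7.14 in monolayers and 37.3, 12.4 and 6.13 in spheroids. The spheroids spread widely, spheroid 3 lay below monolayer 3, and the log2 difference of 1.56 ± 0.72 did not pass. Without spheroid 1 it was 0.83.

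**Figure D3:**
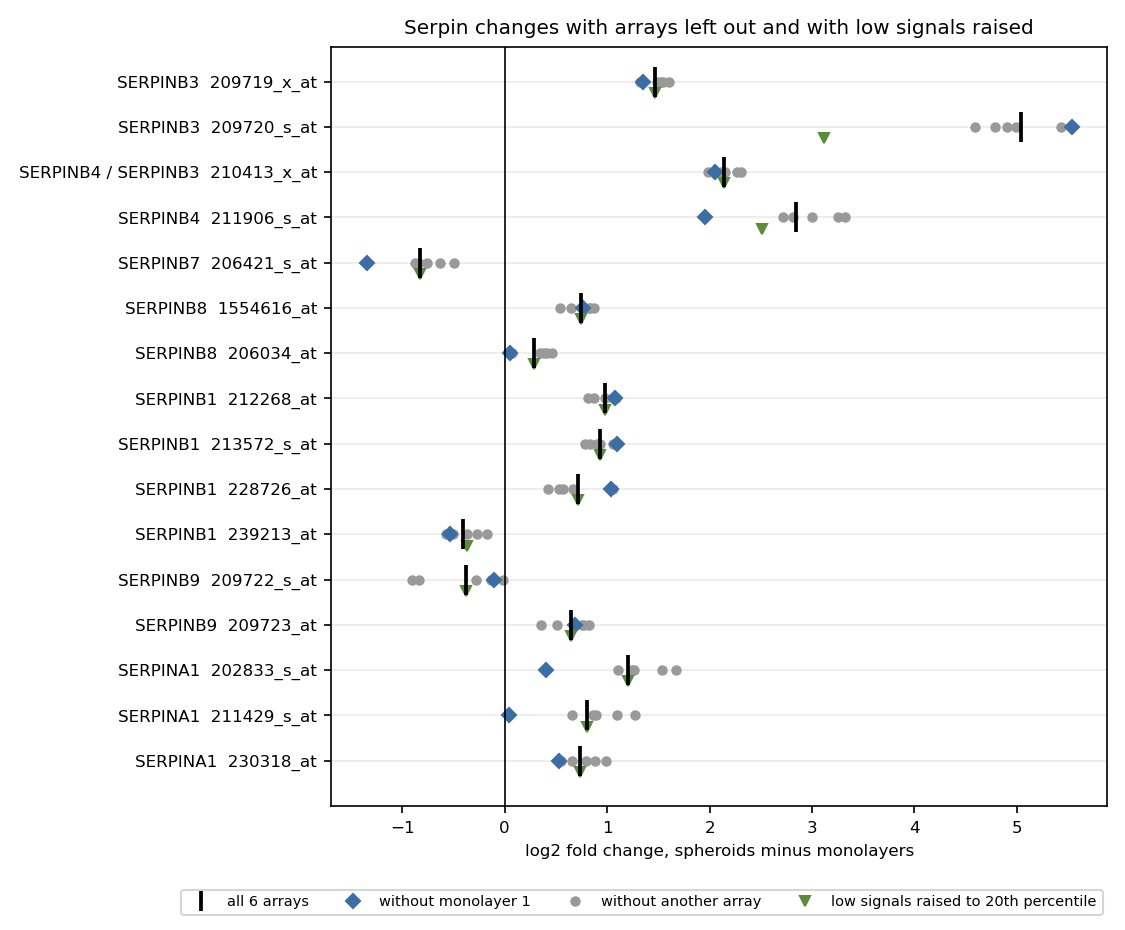
Log2 difference of the 16 serpin probe sets that passed limma or lay above the 20th percentile on every array, with all 6 arrays (black bar), without monolayer 1 (blue diamond), without each other array (grey points), and with low signals raised to the 20th percentile (green triangle). Leaving out monolayer 1 brings SERPINA1 211429_s_at to 0.04 and SERPINB8 206034_at to 0.05 and takes SERPINB7 to -1.35, while SERPINB3 209720_s_at moves most, to 3.12, when low signals are raised.

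Other serpins of the array were taken as a second list. Of 25 further serpin genes 21 were measured, that is, had a probe set with 1 gene symbol in the annotation used. Each was read through such a probe set, that of its highest mean level. Limma called 1 higher and 0 lower, where the shares over all 19775 genes read this way were 3.88% higher and 9.22% lower. At an unadjusted p under 0.05 there were 6, a cutoff at which the share over all genes was not counted. The median log2 difference of the 21 was 0.36 against -0.06 over all genes. The 1 was SERPINB10, a clade B serpin of blood-forming cells whose gene lies between SERPINB2 and SERPINB8. It read 0.772, 1.01 and 2.58 in monolayers and 10.9, 15.0 and 10.2 in spheroids (log2 difference 3.08 ± 0.64, limma, adjusted p = 0.0176). All monolayers lay below the 20th percentile, with lower values raised to it the log2 difference was 1.86, and the call ended without monolayer 2 or any 1 spheroid. SERPINE2, a secreted thrombin and urokinase inhibitor, had means of 1992 ± 202 and 2908 ± 282 (SD, n = 3 each) and a log2 difference of 0.40 ± 0.16 (limma, adjusted p = 0.162), and it passed on the values as deposited and after quantile normalization. Its dimmer probe set, 227487_s_at, read 7.07 to 9.84 in monolayers and 19.3 to 21.9 in spheroids. The log2 difference there was larger, 1.10 ± 0.36, and did not pass (limma, adjusted p = 0.0961). SERPINH1, the collagen chaperone HSP47, had a log2 difference of -0.32 ± 0.18 (limma, adjusted p = 0.342). The other measured genes of this list did not pass limma either and are not described singly here.

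Of 14 proteases that the listed serpins are known to inhibit, 2 were higher, 0 were lower and 12 did not pass limma. Proteases, inhibitors of other families, squamous genes and cell markers were each read through 1 probe set per gene. It was the probe set with 1 gene symbol and the highest mean level, and other probe sets of these genes are not described. The shares over all genes were 3.88% higher and 9.22% lower, and the median log2 difference of the 14 was 0.45. Both that passed were lysosomal cysteine proteases that SERPINB3 inhibits. CTSS, cathepsin S, has 3 probe sets with 1 gene symbol. At 232617_at it read 9.45, 14.4 and 14.5 in monolayers and 27.7, 39.9 and 36.3 in spheroids (log2 difference 1.30 ± 0.32, limma, adjusted p = 0.0364). CTSK, cathepsin K, read 28.7, 28.1 and 24.99 in monolayers and 73.8, 53.6 and 49.5 in spheroids (log2 difference 0.95 ± 0.25, limma, adjusted p = 0.0472). The groups did not overlap for either gene, but the CTSS call ended without any 1 array, the CTSK call without any 1 array but monolayer 1, and both with low values raised to the 20th percentile. CTSL, cathepsin L, had 1550 to 2091 in monolayers and 1697 to 2677 in spheroids, with a log2 difference of 0.17 ± 0.20 (limma, adjusted p = 0.693). Of the targets of SERPINB1, ELANE, neutrophil elastase, lay at 1.01 to 2.09 and PRTN3, proteinase 3, at 0.485 to 4.70. CTSG, cathepsin G, read 4.27, 2.34 and 4.48 in monolayers and 4.97, 14.3 and 5.24 in spheroids, without overlap, and its log2 difference of 0.88 ± 0.60 did not pass (limma, adjusted p = 0.460). GZMB, the granzyme that SERPINB9 inhibits, had means of 1.35 and 6.72, the first below the 20th percentile, and did not pass (limma, adjusted p = 0.100).
Of 14 protease inhibitors of other families, only PI3 was higher and 0 were lower, beside the same shares of 3.88% and 9.22% over all genes. Their median log2 difference was 0.25. PI3, or elafin, an elastase inhibitor of epithelia, rose from 236 ± 105 to 3215 ± 292 (SD, n = 3 each), a log2 difference of 3.71 ± 0.26 (limma, adjusted p = 3.19e-04). SLPI, the other elastase inhibitor of mucosal surfaces, was bright in both groups, at 2958 to 5324 in monolayers and 5482 to 5585 in spheroids, with a log2 difference of 0.39 ± 0.21 (limma, adjusted p = 0.331).
Squamous differentiation is a tissue program in which SERPINB3, SERPINB4, SERPINB5 and SERPINB7 are known. Of 21 genes listed for it 17 were measured. TP63, SPRR2A, KRT6A and KRT17 had no probe set with 1 gene symbol in the annotation used, so their levels were not analysed. Among the 17, 3 were higher, 0 were lower and 14 did not pass limma, with a median log2 difference of -0.04. The shares over all genes were 3.88% higher and 9.22% lower. IVL, involucrin of the cornified envelope, rose from 164 ± 78.6 to 567 ± 132 (SD, n = 3 each), a log2 difference of 1.73 ± 0.33 (limma, adjusted p = 0.0123). S100A8 and S100A7, calcium-binding proteins induced in inflamed epidermis, stood at log2 differences of 1.93 ± 0.44 and 2.54 ± 0.63 (limma, adjusted p = 0.0256 and adjusted p = 0.0380). S100A7 lay below the 20th percentile on every monolayer. With low values raised to it the calls of all 3 genes ended, and the S100A7 difference was 1.29. All 3 calls also ended without spheroid 2 and without spheroid 3, that of S100A8 without monolayer 3 or spheroid 1 as well, and that of S100A7 without any 1 monolayer. KRT14, a basal keratin, had a log2 difference of -2.51 ± 0.82 and did not pass (limma, adjusted p = 0.0974), but it passed as lower with low values raised to the 20th percentile. CNFN was also lower, with a log2 difference of -2.07 ± 0.88, and did not pass (limma, adjusted p = 0.206). Both KRT14 and CNFN had an unadjusted limma p under 0.05.

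**Figure D4:**
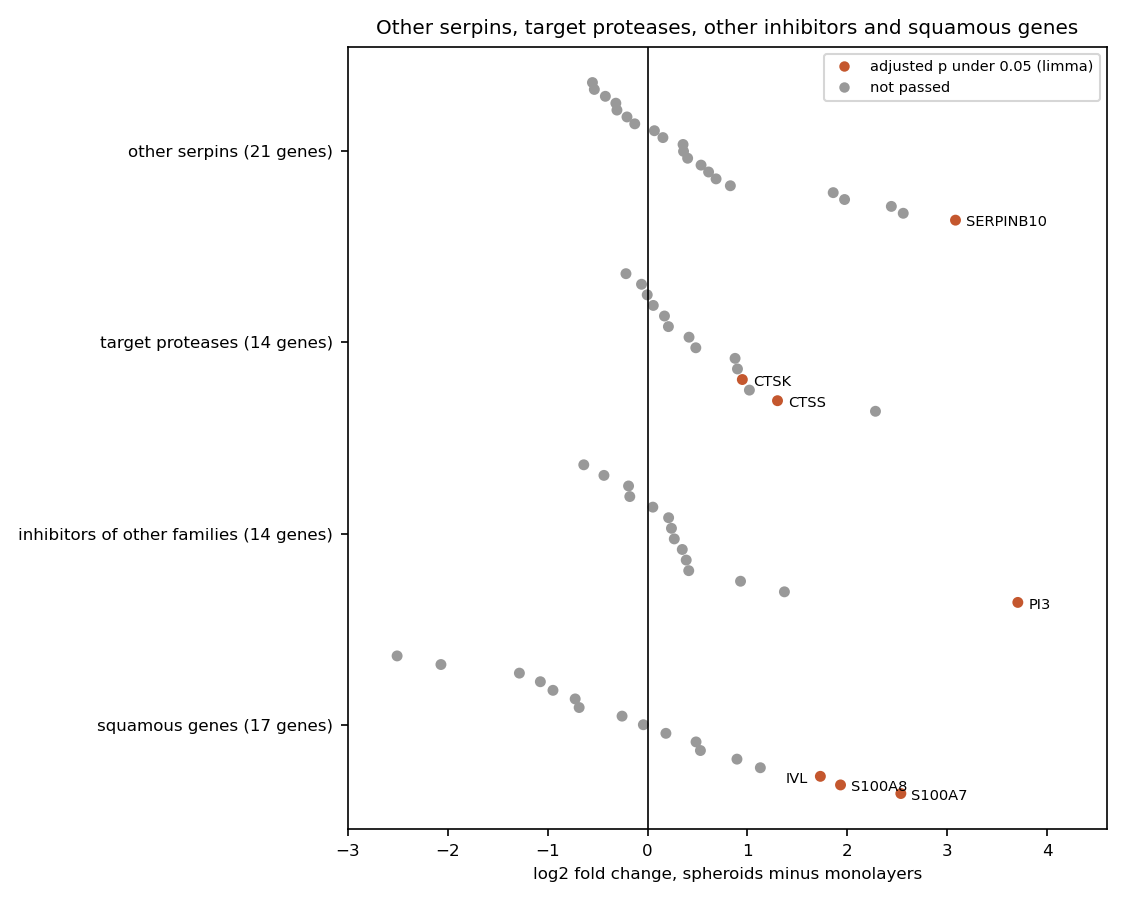
Log2 difference, spheroids minus monolayers, of 21 other serpins, 14 target proteases, 14 inhibitors of other families and 17 squamous genes, 1 probe set per gene as in the text, ordered by value within its row. Orange points, with names, passed limma at an adjusted p under 0.05 (n = 3 arrays per group), and they number 1, 2, 1 and 3.

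The profile of SERPINB3 at 209720_s_at was set beside 24728 probe sets, each with 1 gene symbol and at least 1 group mean over the overall median. The genes whose profile over the 6 arrays was nearest to it were PTGS2, CHI3L1, CCL5 and KLRD1. The root mean square differences, after each log2 profile was set to its own mean, were 0.52, 0.55, 0.66 and 0.68. They were picked for this likeness, so what they share with SERPINB3 is no result. Their log2 differences were 4.37, 4.76, 4.38 and 3.99, and that of KLRD1, which lay below the 20th percentile on every monolayer, was 2.75 with low values raised to it.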

How the data were processed

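RNA of 3 monolayer and 3 spheroid cultures of NCI-H226 was measured on 1 array each. The deposited values are linear signal intensities, 1 for each probe set and array, which come from MAS5 according to the submitters' processing notes. On the deposited values the mean without the highest and lowest 2% of probe sets was the same on every array, so the authors had scaled the arrays. No detection calls were used, signal over background is unknown, and precision is limited by how few arrays there are.

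Signals were taken to log2 and centred on each array's median, without a pseudocount, floor or filter. After 62 controls were left out, 54613 probe sets were compared with limma 3.58.1 in R 4.3.3, with a mean-variance trend, Benjamini-Hochberg adjustment and a threshold of 0.05. The pipeline was tested on simulated data. Overlap of groups was judged on centred values. Symbols come from the platform annotation, updated through gene IDs to RefSeq, which gave 41097 probe sets 1 symbol, 1801 several and 11777 none. Promoters come from RefSeq and were aligned with Biopython 1.88.

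Members and lists were chosen with earlier results of these data known. The genes named are all members, of each other list the genes past the threshold, of other serpins also SERPINE2 and SERPINH1, and the 4 nearest profiles. MSLN, WT1, CALB2, THBD, ITGAM, CD14, PTPRC, CTSL, CTSG, ELANE, PRTN3, GZMB, SLPI, KRT14, CNFN and TGM1 were named after their values were seen, as was SERPINB9P1. TP63, SPRR2A, KRT6A and KRT17 are named only as having no probe set with 1 gene symbol in the annotation used. The alternatives were values as deposited, quantile normalization, signals below the 20th percentile raised to it, a test restricted to probe sets over the median level, no trend in limma, the t-test of the methods before and after adjustment, a replicate block, each array left out, the mean of a gene's probe sets and only probe sets with 1 symbol. Protein sequences were not used here, and neither were probe sets of SERPINB2 or SERPINB6.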

Additional observations from a re-analysis of the deposited data

How the results depend on the processing

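Signal over background is unknown, and 5 of the 21 serpin probe sets had a lower group mean under the 20th percentile, so their fold changes are not exact. No serpin call changed sign under any alternative. The labels do not say whether same-numbered cultures were grown together. The correlations of their deviations from the group means were 0.09, -0.01 and 0.02. That of the number 1 cultures was the largest of any monolayer with any spheroid. Monolayers 2 and 3 correlated best with spheroids 3 and 2 (0.04 and 0.05). These values run over all probe sets, so they cannot decide whether single genes vary together in same-numbered cultures. With the replicate number as a block limma called 6133 of all probe sets in place of 5149, 6 serpin probe sets as before, and 2 inhibitors of other families in place of 1. Among squamous genes TGM1, which was lower in spheroids (log2 difference -1.28), passed in place of S100A7, which was higher.

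Limma without the trend called 457 probe sets, 2 serpin probe sets, 0 other serpins, 0 proteases and 0 squamous genes. The methods' t-test, run here on centred log2 signals, called 1241, 1, 0, 0 and 0 after adjustment (in the same order). Without adjustment it called 10731 of all probe sets and 2 other serpins. These are not the study's own counts. With low signals raised to the 20th percentile, 3 serpin probe sets, 0 proteases and 1 squamous gene passed, and 3734 of all probe sets. Other serpins numbered 2 under quantile normalization, without centring and by the mean of each gene's probe sets, and 0 above the median level. Leaving out 1 array gave 2438 (without monolayer 2) to 6577 (without monolayer 1) of all probe sets, with 2473, 3047 and 2817 without monolayer 3, spheroid 2 and spheroid 3. It gave 2 (without spheroid 3) to 7 (without monolayer 1) serpin probe sets, 0 to 3 other serpins, 0 to 1 proteases, 1 to 2 inhibitors of other families and 0 to 3 squamous genes. The causes were not tested.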

Other observations

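SERPINB9P1, a transcribed pseudogene that lies between SERPINB1 and SERPINB9 in the RefSeq order of serpin-named genes on chromosome 6, was on none of the lists and was named after its values were seen. Its probe set 239186_at read 19.3, 33.0 and 28.1 in monolayers and 84.95, 103 and 136 in spheroids, with no overlap. The log2 fold change was 1.87 ± 0.28 (limma, adjusted p = 0.00441), and between 1.65 and 2.04 without any 1 array, with the call kept each time. It did not pass limma without the trend or the methods' t-test after adjustment. SERPINB1 and SERPINB9 had log2 fold changes of 0.98 and 0.65 at their brightest probe sets.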
